A study of Mus musculus with 8 samples.

Results

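The muscle ankyrin repeat genes and their partners at the Z-disc were read out in dystrophic mdx5cv and wild-type (WT) mouse muscle. The set held 10 genes, chosen by symbol: *Ankrd1*, *Ankrd2* and *Ankrd23*, *Xirp1* and *Xirp2*, *Nrap*, *Csrp3*, *Flnc*, *Tcap* and *Myoz2*. All 10 were found among the 55401 genes of the expression table, and all 10 were among the 13677 genes tested. They did not move together in mdx5cv muscle. *Ankrd1* rose 10.6-fold, *Ankrd2*, *Ankrd23*, *Xirp2* and *Myoz2* fell, and *Xirp1*, *Csrp3*, *Flnc*, *Nrap* and *Tcap* did not pass the test.

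The study sequenced total RNA from whole tibialis anterior (TA) muscle, a fast muscle of the lower leg, of male mice at 6 months of age. The 4 WT muscles came from C57/Bl6 mice. The 4 mdx5cv muscles came from mice that carry the mdx5cv allele of *Dmd*, the dystrophin gene, on the B6 background and serve as a model of Duchenne muscular dystrophy. The comparison asked how expression differs between dystrophic and healthy muscle. Libraries held between 13175524 and 14921057 gene reads, and values are normalized counts, that is, reads divided by a size factor for each muscle. *Dmd* fell from 6954 ± 857 in WT to 3964 ± 388 normalized counts in mdx5cv (SD, n = 4 muscles per group), a log2 fold change of -0.81 (limma adjusted p = 0.000177), with every mdx5cv muscle below every WT muscle. The mdx5cv allele is a point mutation, so reads over the rest of the gene are still counted. The labels do not say whether each muscle came from its own animal, so the p-values measure the spread between these 8 samples.

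The Z-disc anchors thin filaments and the end of titin at the border of each sarcomere, and it is where stretch on a muscle fiber is sensed. The muscle ankyrin repeat proteins bind titin in the I-band and also enter the nucleus, and their genes are known to respond to stretch, injury and denervation. Xin proteins, N-RAP and filamin C link the Z-disc and the fiber's ends to actin and the membrane, whereas muscle LIM protein, telethonin and the calsarcins sit at the Z-disc itself.

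The start regions of the genes are shown first because the members differ there in the muscle control sequences they hold. Promoter sequences from RefSeq (GRCm38.p6) were matched for 8 of the 10 genes, 11 promoters in all, and the 250 bases before each start were searched on both strands. For the TATA box, only the strand of the gene was searched. The M-CAT element, CATTCC, is the binding sequence of TEAD factors and was held by 12.6% of 32851 promoters. It was found 2 times before *Ankrd1*, both on the reverse strand, and once each before *Ankrd23* and *Flnc*. Starts here are those of RefSeq. For *Ankrd1* and *Ankrd23* the matched sites lie inside the longer gene spans that GENCODE M21 gives, which are printed with each gene. The TATA box of *Ankrd2* lies across the start of its GENCODE M21 span. In the lines that follow, each sequence is written 5′ to 3′ along the gene, and the capitals mark the matched element.
Ankrd1, M-CAT, chr19:36120039-36120064, minus strand: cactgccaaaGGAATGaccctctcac
Ankrd1, M-CAT, chr19:36119952-36119977, minus strand: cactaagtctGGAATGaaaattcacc
Ankrd23, M-CAT, chr1:36535844-36535869, minus strand: cagtgggccaCATTCCcagaacggta
Flnc, M-CAT, chr6:29433142-29433167, plus strand: ggccgggcggCATTCCtgggaggccg
Xirp2, MEF2 site, chr2:67445918-67445947, plus strand: agctcagttcCTAAAAATAGgtgctaggtt
Ankrd2, TATA box, chr19:42035988-42036013, plus strand: tgcttgggccTATAAAgaccccatgc

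The MEF2 site, bound by a factor family of muscle genes, was held by 0.508% of promoters, and the TATA box, TATAAA, by 7.59%. The MEF2 match of *Xirp2* lay 74 to 65 bases before the start. The E-box CAGCTG, held by 13.0% of promoters, lay 16 to 11 bases before the start of *Nrap*. The CArG box, bound by SRF and held by 1.47% of promoters, was matched in no member promoter within this window. A match describes letters only, and the genes with an M-CAT element included *Ankrd1*, which rose, *Ankrd23*, which fell, and *Flnc*, which did not pass the test.

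*Ankrd1* (chr19:36111961-36120099, minus strand, protein-coding, GRCm38) encodes CARP, the ankyrin repeat protein best known from heart muscle. It stood at 94.0, 76.8, 75.2 and 69.9 normalized counts in WT muscles 1 to 4, and at 793, 860.3, 759 and 923 in mdx5cv muscles 1 to 4. The lowest mdx5cv muscle was far above the highest WT muscle, and the 4 mdx5cv muscles lay close to each other. The means were 79.0 ± 10.4 and 834 ± 72.8 (SD, n = 4), a log2 fold change of 3.39 (SE 0.12, 95% interval 3.13 to 3.65, limma adjusted p = 2.83e-09). By p, *Ankrd1* ranked 2 among all genes tested, whereas by log2 fold change it ranked 163 among the 1414 genes called higher. Its spread was small beside that of other genes called higher. The coefficient of variation over the mdx5cv muscles was 8.73%, and of 574 genes called higher with a mean of at least 100 in mdx5cv, 17 had a lower one, against a median of 30.5%. These genes were not matched to *Ankrd1* by mean level or by cell type, so this rank is a description only.

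Markers of regenerating fibers rose in the same muscles as *Ankrd1*, and their spread was wider. All 6 of 6 passed, with a summed level of 118 to 143 normalized counts in WT muscles and of 4814, 2175, 3000 and 8502 in mdx5cv muscles 1 to 4. *Ankrd1* differed by far less between those 4 muscles. Of the 6 cardiomyocyte markers, 2 were abundant enough to test. Among these, *Myl4*, an atrial light chain that embryonic skeletal muscle also uses, rose by 3.37 on the log2 scale (limma adjusted p = 1.23e-06), and *Myh6* had a log2 fold change of -1.52 (limma adjusted p = 0.00989). *Nppa*, the atrial natriuretic peptide gene, had 0 reads in all 8 muscles. The summed level of the list was 99.8 to 121 in WT and 354 to 983 in mdx5cv. *Myl4* alone was at 47.0 to 61.4 in WT and at 322 to 959 in mdx5cv, so it made up most of the mdx5cv sum. What part regenerating fibers had in the *Ankrd1* level was not tested.

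*Ankrd2* (chr19:42036000-42045110, plus strand) encodes the ankyrin repeat protein found mainly in slow fibers. WT muscles 1 to 4 held 210.9, 300.5, 305 and 220.3 normalized counts, and mdx5cv muscles 1 to 4 held 39.8, 204, 185 and 145. Muscle 1 stood far below the other mdx5cv muscles, and the groups did not overlap. The mean fell from 259 ± 50.6 to 143 ± 73.4, a log2 fold change of -1.06 (SE 0.39, 95% interval -1.90 to -0.22, limma adjusted p = 0.0434). This call was not firm: without mdx5cv muscle 1 the log2 fold change was -0.53 (limma adjusted p = 0.0339), and with edgeR and DESeq2 it was -0.85 (adjusted p = 0.0591 and 0.184). Without any of the WT muscles in turn, or without mdx5cv muscle 4, the adjusted p from limma was between 0.0584 and 0.106, and without a variance trend it was 0.0996. *Ankrd2* passed in 10 of 19 alternative fits. Among these, the limma adjusted p was 0.0181 without mdx5cv muscle 2, 0.0273 without mdx5cv muscle 3 and 0.00714 with a block for the replicate number.

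*Ankrd23* (chr1:36530188-36536883, minus strand) encodes DARP, the third protein of the group, linked to energy metabolism. Its WT values were 2016, 2803, 2128 and 2566 normalized counts, and its mdx5cv values were 1228, 1608, 1602 and 964.5. Every mdx5cv muscle was below every WT muscle. The mean fell from 2378 ± 369 to 1351 ± 313, a log2 fold change of -0.83 (SE 0.16, 95% interval -1.19 to -0.48, limma adjusted p = 0.00141). *Ankrd23* shares 2109 of its 2697 exon bases with *Gm42417*, a gene model on the same strand at 0 reads in all muscles, and how reads there were assigned is not given in the sources used here.

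Levels of different genes can be compared only per length of exon, so each normalized count was divided by the kilobases (kb) of merged exons. Exons were merged over all annotated transcripts, 6 for *Ankrd1* and 2 for *Ankrd2*. Which transcripts these muscles express was not tested, so comparisons between genes per kb are approximate. On that scale *Ankrd1* made up 2.46% ± 0.632 of the summed level of *Ankrd1*, *Ankrd2* and *Ankrd23* in WT muscles and 32.3% ± 6.62 in mdx5cv muscles (SD, n = 4). The share of *Ankrd23* was 77.4% ± 3.51 in WT and 54.4% ± 6.86 in mdx5cv, and that of *Ankrd2* was 20.1% ± 3.42 and 13.3% ± 5.80. The sum of the 3 genes was 1137 ± 153 per kb in WT and 916 ± 154 in mdx5cv. The ratio of *Ankrd1* to *Ankrd2* per kb was 0.0972 to 0.176 in WT muscles and 1.61 to 7.85 in mdx5cv muscles, the highest being mdx5cv muscle 1. If only the 588 exon bases that *Ankrd23* does not share are counted, a choice made after seeing the data, the share of *Ankrd1* was 0.653% ± 0.173 in WT and 11.1% ± 3.10 in mdx5cv. The share of *Ankrd23* was then 94.0% ± 1.14 and 84.3% ± 3.91, and the sum was 4300 ± 640 and 2712 ± 557 per kb. Which length the *Ankrd23* count rests on is not known here, so both sets of shares are given.

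**Figure D1:**
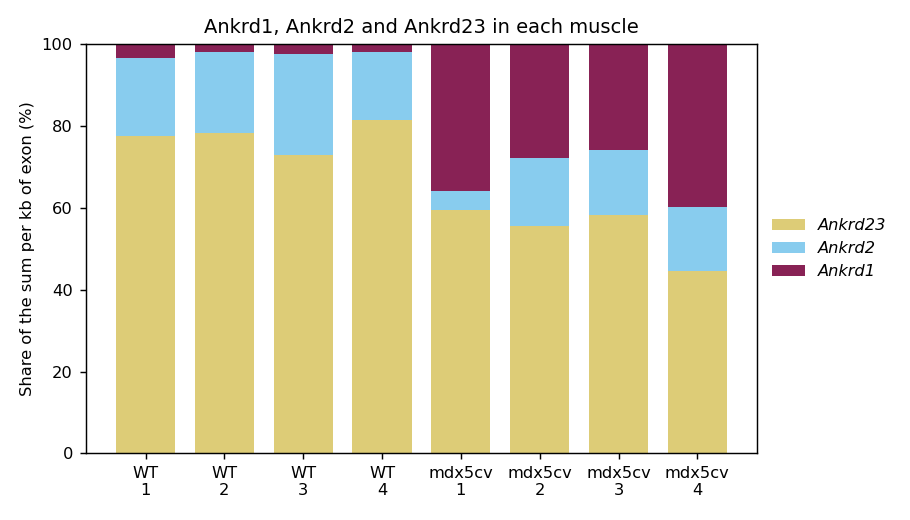
Stacked bars give the share, in percent, of Ankrd1, Ankrd2 and Ankrd23 in the sum of their normalized counts per kb of exon in each of 4 WT and 4 mdx5cv muscles. Ankrd1 takes 2.0 to 3.37% in WT muscles and 25.8 to 39.8% in mdx5cv muscles. The exon length of Ankrd23 includes the bases it shares with Gm42417.

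The Xin repeat genes, which encode actin-binding proteins of the intercalated disc, the myotendinous junction and damaged myofibrils, parted in the same muscles. *Xirp2* (chr2:67446002-67526614, plus strand) was at 62047, 61616, 73639 and 55703 normalized counts in WT muscles 1 to 4 and at 41945, 42974, 43084 and 26107 in mdx5cv muscles 1 to 4. All mdx5cv muscles were below all WT muscles, and muscle 4 was well below the other mdx5cv muscles. The mean fell from 63251 ± 7506 to 38527 ± 8296, a log2 fold change of -0.74 (SE 0.20, 95% interval -1.16 to -0.31, limma adjusted p = 0.00905). Without mdx5cv muscle 4 it was -0.56 (limma adjusted p = 0.00485).

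*Xirp1* (chr9:120013755-120023598, minus strand) encodes Xin itself, a marker of muscle damage. It was at 1077, 748, 1201 and 1586 normalized counts in WT and at 1278, 1418, 1314 and 1534 in mdx5cv. The mdx5cv muscles lay within the range of the WT muscles, which were more spread. The means were 1153 ± 346 and 1386 ± 115, a log2 fold change of 0.31 with a 95% interval of -0.07 to 0.70 (limma adjusted p = 0.179). The level of *Xirp2* per kb was 17.1 to 40.2 times that of *Xirp1* in WT muscles and 8.29 to 16.0 times in mdx5cv muscles. Single WT muscles moved the log2 fold change of *Xirp1* in both directions: without WT muscle 4 it was 0.48 (limma adjusted p = 0.0244), and without WT muscle 2 it was 0.12 (limma adjusted p = 0.489). With equal library totals it was 0.67 (limma adjusted p = 0.0163).

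*Nrap* (chr19:56320035-56390037, minus strand) encodes a nebulin-related anchoring protein of forming myofibrils and the fiber's ends. It was at 20600, 16258, 16484 and 15062 normalized counts in WT and at 12011, 16310, 13786 and 10182 in mdx5cv. The groups overlapped through mdx5cv muscle 2. The log2 fold change was -0.40 (SE 0.16, 95% interval -0.74 to -0.05, limma adjusted p = 0.0620), and without mdx5cv muscle 2 it was -0.51 (limma adjusted p = 0.0242). It passed with DESeq2 (-0.39, adjusted p = 0.0448) and not with edgeR (-0.38, adjusted p = 0.0748).

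*Flnc* (chr6:29433256-29461883, plus strand) encodes filamin C, the muscle filamin that crosslinks actin at the Z-disc and collects at myofibril lesions. Its values were 9478, 8334, 9582 and 9932 normalized counts in WT and 9452, 10778, 11145 and 10853 in mdx5cv. Muscle 1 of the mdx5cv group lay inside the WT range and the other three lay above it. The means, 9331 ± 693 and 10557 ± 753, differed by 0.18 on the log2 scale with a 95% interval of -0.07 to 0.42 (limma adjusted p = 0.230). With equal library totals, a scaling that raised the median of all genes by 0.36, *Flnc* passed at 0.54 (limma adjusted p = 0.00280).

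*Csrp3* (chr7:48830398-48848033, minus strand) encodes muscle LIM protein, a slow fiber and heart protein of the Z-disc and the nucleus. Its levels were low, at 125, 65.8, 103 and 108 normalized counts in WT and 76.9, 98.1, 168 and 146 in mdx5cv. The groups overlapped widely. Means of 100.4 ± 24.9 and 122 ± 42.2 gave a log2 fold change of 0.25 with a 95% interval of -0.28 to 0.79 (limma adjusted p = 0.441), so the interval held changes of either sign.

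*Tcap* (chr11:98383811-98384953, plus strand) encodes telethonin, which caps the ends of titin at the Z-disc. It was at 15449, 18978, 17986 and 12503 normalized counts in WT and at 9987, 15632, 12531 and 7782 in mdx5cv. Muscles 2 and 3 of the mdx5cv group reached the WT range and muscles 1 and 4 lay below it. The means were 16229 ± 2895 and 11483 ± 3379, a log2 fold change of -0.53 (SE 0.20, 95% interval -0.96 to -0.09), and the adjusted p from limma, 0.0516, missed the threshold of 0.05. It passed without WT muscle 4 (-0.65, limma adjusted p = 0.0284), without mdx5cv muscle 2 (-0.69, limma adjusted p = 0.0125) and with DESeq2 (-0.50, adjusted p = 0.0452), and not with edgeR (-0.49, adjusted p = 0.0697).

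*Myoz2* (chr3:123006206-123035015, minus strand) encodes calsarcin-1, the calcineurin-binding Z-disc protein of slow fibers and heart. WT muscles held 289, 240, 200 and 183 normalized counts and mdx5cv muscles held 76.0, 125, 157 and 163. The highest mdx5cv muscle was below the lowest WT muscle, by a small gap. The mean fell from 228 ± 47.0 to 130 ± 39.8, a log2 fold change of -0.84 (SE 0.22, 95% interval -1.32 to -0.36, limma adjusted p = 0.00851). When every muscle was scaled to the same total, which moved the median over all genes to 0.36, *Myoz2* was at -0.49 (limma adjusted p = 0.0922).

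**Figure D2:**
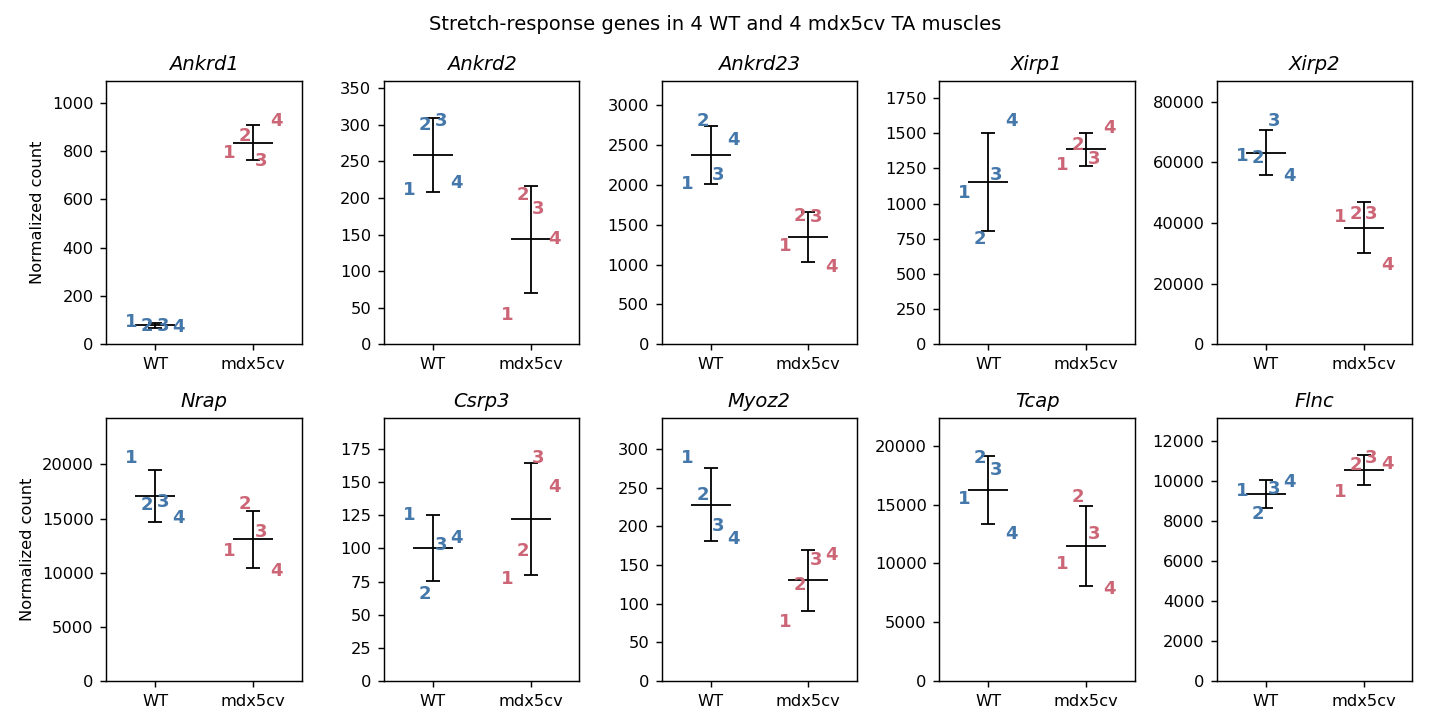
Each panel plots the normalized count of a gene (linear axis from 0) in 4 WT and 4 mdx5cv TA muscles, with digits for the replicate number, a horizontal line for the mean and bars for 1 SD. Ankrd1 is higher in all 4 mdx5cv muscles, and Ankrd2, Ankrd23, Xirp2 and Myoz2 are lower in all 4.

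Counted over the set, 1 gene passed the limma test upward and 4 downward at an adjusted p under 0.05, where 20.9% of all genes tested passed upward and 20.1% downward. With a log2 fold change of at least 1 in size as well, *Ankrd1* was called higher and *Ankrd2* lower, against 10.3% and 3.27% of all genes tested, or 13.6% in either direction. The groups did not overlap for 5 of the 10 genes, 1 above and 4 below, beside 40.1% of all genes tested, 20.3% above and 19.8% below. The median log2 fold change of the 10 genes was -0.46, beside 0.00 for all genes tested. The share of the set that passed in either direction, 5 of 10, was thus near the 40.9% of all genes tested that did. The lowest count behind a value was 43 reads, for *Ankrd2* in mdx5cv muscle 1, and the highest was 66603, for *Xirp2*.

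**Figure D3:**
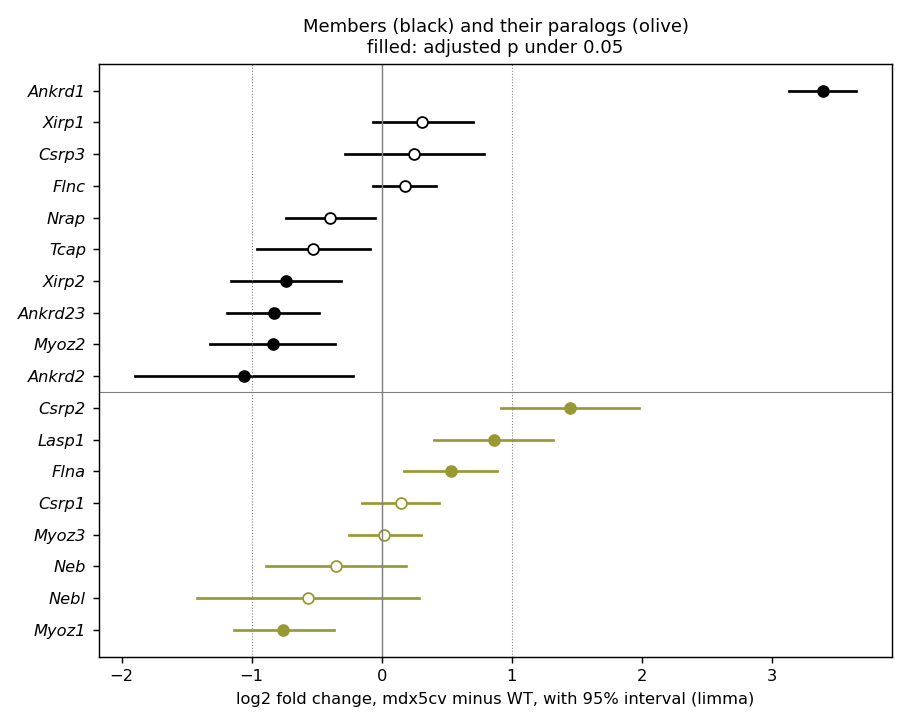
Points give the log2 fold change, mdx5cv minus WT, of the 10 genes (black) and of 8 of their 9 paralogs (olive) with 95% intervals from limma, filled where the adjusted p was under 0.05. Ankrd1 stands at 3.39, and the other 9 members lie between -1.06 and 0.31.

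Per kb, the members spanned a wide range of levels, and *Tcap* and *Xirp2* led in both groups. In WT, *Tcap* led at 17119 normalized counts per kb, followed by *Xirp2* at 5280, *Nrap* at 3105, *Flnc* at 992.5 and *Ankrd23* at 882. *Ankrd2* at 228, *Xirp1* at 197.5, *Myoz2* at 66.6, *Csrp3* at 37.6 and *Ankrd1* at 27.4 came below. The ranges over the 4 WT muscles overlapped for the neighbours *Flnc* and *Ankrd23*, *Ankrd2* and *Xirp1*, and *Csrp3* and *Ankrd1*, so the order within these pairs was not resolved. In mdx5cv muscle, *Ankrd1* stood at 289 per kb, ranked 6 of the 10, above *Xirp1* at 237 and *Ankrd2* at 126 and below *Ankrd23* at 501. At the bottom of the mdx5cv order, *Csrp3* at 45.8 and *Myoz2* at 38.0 overlapped, as did *Csrp3* and *Ankrd2*, and so did *Xirp2* at 3216 and *Nrap* at 2374 near the top. With the unshared exon length, *Ankrd23* would stand at 4044 ± 628 per kb in WT, above *Nrap*, and at 2297 ± 532 in mdx5cv, just below it.

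**Figure D4:**
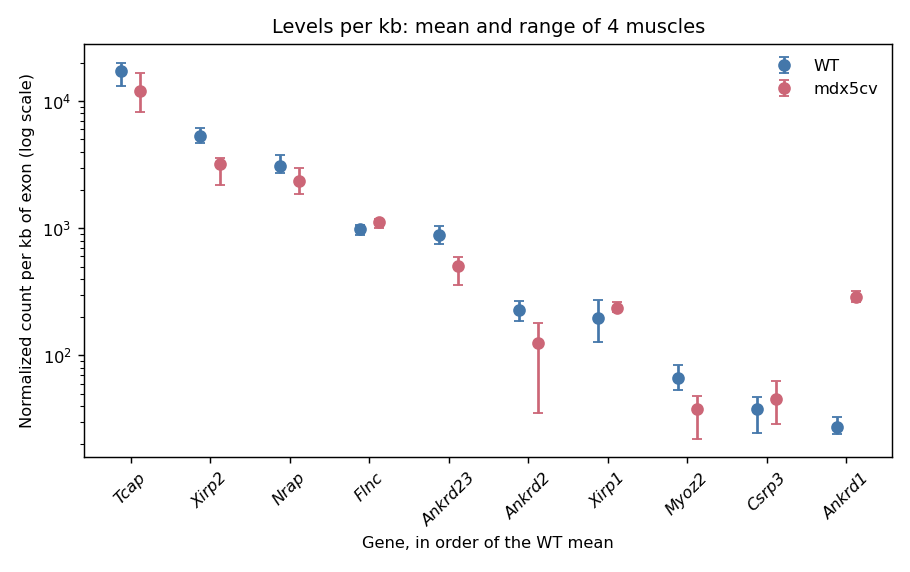
Points give the mean normalized count per kb of exon (log axis) of the 10 genes in WT (blue) and mdx5cv (red), with bars from the lowest to the highest of 4 muscles. Ankrd1 is the lowest gene in WT, at 27.4, and ranks 6 in mdx5cv, at 289. The exon length of Ankrd23 includes the bases it shares with Gm42417.

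The members did not vary alike between the mdx5cv muscles. Muscle 1 was the lowest of the 4 for *Ankrd2*, *Csrp3*, *Xirp1*, *Flnc* and *Myoz2*, and muscle 4 was the lowest for *Ankrd23*, *Nrap*, *Xirp2* and *Tcap*. Muscle 4 was also the highest for *Ankrd1*, *Xirp1* and *Myoz2*, and muscle 2 was the highest for *Ankrd2*, *Ankrd23*, *Nrap* and *Tcap*. No mdx5cv muscle was thus the lowest for all 10 genes.

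The summed markers of fiber types and of other cell types also differed between the mdx5cv muscles. Of 7 fast fiber markers, 3 fell and 0 rose by the limma test. Their summed level was 857890 to 1028240 normalized counts in WT and 831752, 933835, 891617 and 579888 in mdx5cv muscles 1 to 4, lowest in muscle 4. In that muscle the summed markers of regenerating fibers (8502), macrophages (4626) and fibroblasts (31691) were the highest of the 8 muscles. The macrophage sum was 355 to 547 in WT and 1906 to 4626 in mdx5cv, with 6 of 6 genes higher, and the fibroblast sum was 5365 to 8125 in WT and 17679 to 31691 in mdx5cv, with 5 of 6 genes higher by the limma test. The smooth muscle sum was 1530 to 2197 in WT and 1582 to 2162 in mdx5cv. Its genes went different ways: of 4 tested, 1 rose and 2 fell by the limma test. The endothelial sum was 2492 to 3067 in WT and 1588 to 2036 in mdx5cv, with 4 of 5 genes lower. Over all genes tested, 20.9% rose and 20.1% fell. In these whole-muscle libraries, fewer cells of a type and less RNA per cell cannot be told apart.

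The slow fiber markers summed to 735 to 783 in WT and to 1350, 1178, 1462 and 2566 in mdx5cv muscles 1 to 4, with 4 of 6 genes higher and 1 lower. The sum was lowest in muscle 2 of the mdx5cv group, not in muscle 1, where *Ankrd2* and *Myoz2* were lowest. *Atp2a2* alone was at 839, 741, 886 and 1402 normalized counts in mdx5cv muscles 1 to 4, so it made up most of the mdx5cv sum. Of the 6 genes, 2 were lowest in muscle 1, *Myl3* and *Myh7*, while *Tnni1*, *Tnnc1* and *Atp2a2* were lowest in muscle 2 and *Tnnt1* in muscle 3. The values of the first pair, picked after they were seen, follow. *Myl3*, the slow ventricular light chain, was at 335, 459, 407 and 229 normalized counts in WT and at 4.63 in mdx5cv muscle 1, against 47.9 to 52.2 in the other mdx5cv muscles. *Myh7*, the slow myosin heavy chain, was at 33.2, 13.2, 28.7 and 122 in WT and at 19.5, 125, 176 and 230.1 in mdx5cv. What part the fiber types had in the levels of the members was not tested.

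**Figure D5:**
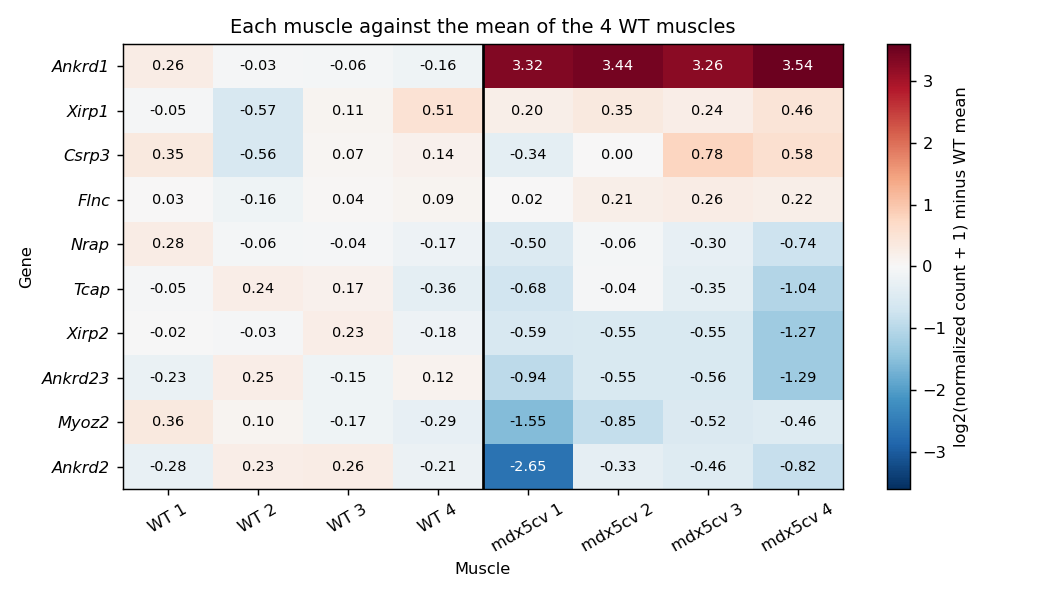
The heat map gives, for each of the 10 genes (rows) and 8 muscles (columns), the log2 of the normalized count plus 1 minus the mean of the 4 WT muscles, in red where higher and in blue where lower. Ankrd1 lies between 3.26 and 3.54 in all mdx5cv muscles, and the lowest cell is Ankrd2 in mdx5cv muscle 1, at -2.65.

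Among 9 paralogs, 3 rose and 1 fell at an adjusted p under 0.05, against 20.9% and 20.1% of all genes tested, and their median log2 fold change was 0.02. *Csrp2*, the LIM protein paralog of *Csrp3* known from smooth muscle and myoblasts, was at 14.9, 17.6, 24.3 and 21.2 normalized counts in WT and at 62.1, 47.2, 38.7 and 75.1 in mdx5cv. It rose without overlap, with a log2 fold change of 1.45 (SE 0.25, limma adjusted p = 0.000506), while *Csrp1* differed by 0.15 (limma adjusted p = 0.411). *Lasp1*, the short nebulin-family relative of *Nrap*, rose by 0.86 (limma adjusted p = 0.00587). The other nebulin relatives did not pass. *Neb* was at -0.35 (SE 0.25, limma adjusted p = 0.285), with all mdx5cv muscles (181466 to 239218 normalized counts) below all WT muscles (272240 to 296960). Its coefficients of variation were 4.19% in WT and 12.2% in mdx5cv, and the SE also holds the prior variance that the test sets by mean level. *Nebl* was at -0.57 (limma adjusted p = 0.275) with overlapping groups.

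*Flna*, the filamin of most cell types, rose by 0.53 (SE 0.17, limma adjusted p = 0.0206), beside the 0.18 of *Flnc*. *Myoz1*, the calsarcin of fast fibers, fell from 15010 ± 2558 to 8977 ± 1994 normalized counts, a log2 fold change of -0.76 (limma adjusted p = 0.00440). It thus fell along with *Myoz2*, whereas *Myoz3* was at 1592 ± 273 and 1606 ± 165, a log2 fold change of 0.02 (limma adjusted p = 0.903). The differences between paralogs were not tested against each other.

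Of 30 other Z-disc genes and titin partners, 9 fell and 2 rose at an adjusted p under 0.05, where 20.1% of all genes tested fell and 20.9% rose. Their median log2 fold change was -0.21. *Smyd2*, a methyltransferase that binds titin's N2A region together with a chaperone, passed the fold minimum: it fell from 2297 ± 107 to 994 ± 89.96 normalized counts, a log2 fold change of -1.21 (SE 0.10, limma adjusted p = 2.22e-06). The others, named after their values were seen, included *Myot* for myotilin at -0.94 (limma adjusted p = 0.000294) and *Actn3*, the fast fiber actinin, at -0.64 (limma adjusted p = 0.0155), while *Palld* for palladin rose by 0.91 (limma adjusted p = 0.00230). *Ttn* itself was at -0.33 (SE 0.51, limma adjusted p = 0.638) and did not pass, although every mdx5cv muscle (1388280 to 1788520 normalized counts) was below every WT muscle (2018590 to 2153610). Its coefficients of variation were 2.68% in WT and 11.5% in mdx5cv. The SE also holds the prior variance that the test sets by mean level, so it does not show a wide spread between these muscles. Desmin, *Des*, was at -0.02 (limma adjusted p = 0.909).

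Of 18 genes of the costamere and the myotendinous junction, the sites that carry force from the Z-disc to the membrane, 9 rose and 1 fell at an adjusted p under 0.05, beside 20.9% and 20.1% of all genes tested, and their median log2 fold change was 0.43. All 18 had log2 fold changes under 1 in size, and the examples that follow were picked after their values were seen. *Zyx* for zyxin, a LIM protein of strained actin, rose by 0.94 (limma adjusted p = 0.00139). *Itga7*, the laminin-binding integrin of muscle, rose by 0.65 (limma adjusted p = 0.000940) and *Vcl* for vinculin by 0.54 (limma adjusted p = 0.00311). The gene that fell was *Fermt2*, at -0.33. The 8 that did not pass lay between -0.16 and 0.5, with *Tln2* at -0.09, *Itgb1bp2* at -0.13 and *Col22a1* at 0.06. Macrophage and fibroblast marker sums were higher in mdx5cv in the same whole-muscle libraries. What part such cells had in the levels of these 18 genes was not tested.

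Of 21 genes of the YAP-TEAD and SRF-MRTF pathways, which turn on genes in response to mechanical load and actin assembly, 20 were tested, of which 5 rose and 2 fell at an adjusted p under 0.05, with 20.9% and 20.1% over all genes tested. Their median log2 fold change was 0.17. *Actc1*, the cardiac actin that immature skeletal fibers also express, averaged 955 ± 334 normalized counts in WT and 3214 ± 1356 in mdx5cv and rose by 1.72 on the log2 scale (SE 0.25, limma adjusted p = 0.000179). *Tead2*, a TEAD factor of immature cells, averaged 14.8 ± 4.65 and 29.6 ± 4.32 and rose by 1.01 on the log2 scale (SE 0.28, limma adjusted p = 0.0125). *Abra*, the actin-binding activator of SRF known as STARS, fell from 1551 ± 313 to 715 ± 154, a log2 fold change of -1.12 (SE 0.16, limma adjusted p = 0.000164). *Ccn1* and *Ccn2*, common target genes of YAP and named after their values were seen, had log2 fold changes of 0.51 (limma adjusted p = 0.0669) and 0.39 (limma adjusted p = 0.120). *Srf* itself, also named after its values were seen, fell from 735 ± 174 to 494 ± 72.2 with overlapping groups. Its log2 fold change was -0.55 (SE 0.16, limma adjusted p = 0.0146).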

How the data were processed

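Total RNA of the 8 TA muscles was prepared with a stranded kit. The authors trimmed reads, aligned them to mm10 and counted them per gene, and the deposited signal is the count divided by a size factor for each library. The submitters' processing notes name FastQC, Trim Galore 0.6.4, STAR 2.6.0c, SAMtools 1.9, featureCounts, MultiQC 1.6, DESeq2 1.26.0 and R 3.6.2. The annotation and strand setting are not given in the sources used here. Every value was a whole number of reads (tolerance 0.01) divided by a factor between 0.873 and 1.25.

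Normalized counts were tested as log2(value + 1) with limma 3.58.1 in R 4.3.3 for the 13677 genes whose mean reached 10, with 4 muscles per group. The moderated test was two-sided, let the prior variance follow the mean level, and its p-values were adjusted by the Benjamini-Hochberg method. Fold changes on this scale understate those of low genes. A gene passed at an adjusted p under 0.05 and was called with a log2 fold change of at least 1 in size as well. The script was tested on simulated data. No 2 muscles of a group agreed within sampling noise (chi-square per degree of freedom 8.59 or more). Other scalings, pseudocounts of 0.1 and 10, filters, thresholds, a replicate block, edgeR 4.0.16 and DESeq2 1.42.0 on the recovered reads, and fits without each muscle in turn were run as alternatives.

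Lengths and positions came from GENCODE M21, which held 55141 of the 55401 gene IDs. The genes named are the 10 members, *Dmd*, the paralogs, and in each other list up to 3 called genes with the highest and 3 with the lowest log2 fold change, with others said to be picked later. The values of 1 paralog and some promoter matches are not reported here. The members and lists were chosen with earlier results of these data known.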

Additional observations from a re-analysis of the deposited data

Results flagged for a closer look

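*Xirp2* in mdx5cv muscle 4 stood apart from its group. Its log2 value was 14.67, against 15.36 to 15.39 in the other mdx5cv muscles, and the gap took 0.947 of the group's range, above Dixon's critical value for 4 samples. This was the result in 1 of 36 sets of 4 muscles tested, where chance alone gives about 1 in 20, or 1.8 sets. Why this muscle was low was not tested.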

How the results depend on the processing

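*Ankrd1*, *Ankrd23* and *Xirp2* passed an adjusted p of 0.05 in the same direction under all 19 alternative fits, with log2 fold changes of 3.25 to 3.74, -0.93 to -0.48 and -0.83 to -0.38, and no member changed sign. Scaling each muscle to the same total moved the median over all genes to a log2 fold change of 0.36. Relative to that shift the members stood at their reported values, but without it *Myoz2* (-0.49, limma adjusted p = 0.0922) and *Ankrd2* (-0.71, 0.133) no longer passed, while *Xirp1* (0.67, 0.0163) and *Flnc* (0.54, 0.00280) did, so 3 members passed upward and 2 downward. The count of members called lower, *Ankrd2* alone in the reported fit, was 0 with equal totals, a pseudocount of 10, no variance trend, edgeR and DESeq2, and 4 with a fold minimum of 0.5 or none. With equal totals 2256 genes were called higher and 210 lower (91.5% higher, beside 76.0% in the reported fit). Without a filter 2202 were called higher, with at least 10 in every muscle 729 higher and 275 lower, with a fold minimum of 0.5 2439 and 1844, and with none 2854 and 2743. Centring on the median left 68.5% higher.

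Paralogs called higher were 2 with equal totals and 3 with a fold minimum of 0.5 or none, which also gave 1 lower. Z-disc genes called higher were 2 with equal totals, 1 with edgeR and DESeq2, and 2 with a minimum of 0.5 or none. Those called lower were 0 with equal totals, 2 with centring, 7 with a minimum of 0.5 and 9 with none. Costamere genes called higher were 2 with equal totals, 6 with a minimum of 0.5 and 9 with none, which gave 1 lower. Pathway genes of YAP-TEAD and SRF-MRTF called higher were 4 with equal totals, 5 with a minimum of 0.5 or none, and 1 with TMM factors, centring, a pseudocount of 10, at least 10 in every muscle, edgeR and DESeq2. Those called lower were 0 with equal totals and 2 with a minimum of 0.5 or none.

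Without each muscle in turn, all genes called ranged from 1216 to 1470 higher and 379 to 521 lower, members called from 1 to 1 higher and 0 to 1 lower, and members past the adjusted p from 1 to 2 higher and 3 to 6 lower. In the lists, the genes called ranged from 1 to 2 higher and 0 to 0 lower for paralogs, 0 to 2 and 1 to 2 for Z-disc genes, 0 to 1 and 0 to 0 for costamere genes, and 1 to 2 and 1 to 1 for the YAP-TEAD and SRF-MRTF genes.

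Muscles with the same replicate number shared little beyond the number: the correlations of their deviations were 0.0309 to 0.146, over 0.1 in 1 of 4 pairs. With the replicate block, 1428 genes were called higher and 454 lower, and *Tcap* passed (-0.53, limma adjusted p = 0.00605). Why results changed under a setting was not tested.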
